A study of Arabidopsis thaliana with 44 samples.

Results

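A set of 10 of the 33557 genes in the table encodes enzymes that remove superoxide and hydrogen peroxide: the copper/zinc superoxide dismutases CSD1 (AT1G08830) and CSD2 (AT2G28190), their copper chaperone CCS (AT1G12520), the iron superoxide dismutases FSD1 (AT4G25100), FSD2 (AT5G51100) and FSD3 (AT5G23310), the catalases CAT2 (AT4G35090) and CAT3 (AT1G20620), and the ascorbate peroxidases APX1 (AT1G07890) and APX2 (AT3G09640). They were chosen by gene name, and their levels were followed in all 22 groups. RNA was sequenced from the entire aerial part of Arabidopsis thaliana plants, 23 days old at the start of treatment, grown on soil at 22°C (warm). Part of the plants then spent 24 h, and others 2 weeks, at 4°C. There were 44 samples, 2 in each of the 22 groups, all collected at ZT4 (hours after the lights came on, in a 12 h photoperiod). The wild types were the Swedish ecotype (SW) and the Italian ecotype (IT), whose own CBF2, a gene for a cold-induced transcription factor, carries a natural deletion that makes it nonfunctional. The mutants sw-cbf2, sw-cbf23 and sw-cbf123 are SW lines in which CBF2, CBF2 with CBF3, or CBF1, CBF2 and CBF3 are named as mutated. The lines it8 and it33 are of the Italian ecotype, it8 was taken as the IT triple cbf mutant, and it33 is kept under its label. The methods state that the mutations were made with CRISPR/Cas9 and that F2 plants from a backcross to the parent were used. The line 35s, also Italian, was sampled at 22°C only, and its label gives no more than that name and the ecotype; the methods name CBF2-overexpressing plants among those sequenced, without tying them to a label. Each group is given as 1 value per gene, the authors' pooled value of its 2 samples, so no spread between samples could be set on any value below and no comparison was tested. The plants at 4°C also had less light, about 35 µmol per square metre per second against 100 to 120 at 22°C, and those kept for 2 weeks were older, so cold, light and age cannot be told apart.

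Superoxide arises where electrons leak from the photosynthetic and respiratory chains, and superoxide dismutases turn it into hydrogen peroxide. Plants hold copper/zinc and iron forms of the enzyme, and their balance is set by copper supply: the microRNA miR398, made when copper is short, cleaves the transcripts of CSD1, CSD2 and CCS, while FSD1, which needs no copper, is raised. Hydrogen peroxide is removed by catalases in the peroxisome, where photorespiration makes much of it in leaves, and by ascorbate peroxidases, which spend ascorbate that the ascorbate-glutathione cycle then restores.

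Sequences are shown for the microRNA and for the transcript windows that pair best with it, since CSD1, CSD2 and CCS are its known targets. They were read from the RefSeq genome TAIR10.1, 5′ to 3′. In the mature microRNAs capitals mark the seed (bases 2 to 8), and both forms share it:
miR398a-3p (from chr2:1041012-1041032, plus strand): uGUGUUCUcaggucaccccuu
miR398b-3p (from chr5:4691107-4691127, plus strand; miR398c-3p is identical): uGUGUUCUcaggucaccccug
In the target windows capitals mark bases that pair with miR398b-3p by the Watson-Crick rule:
CSD1 (5′ UTR, chr1:2827177-2827685, plus strand, across an exon junction): aAGGGGTttCCTGAGAtCACA
CSD2 (coding, chr2:12015572-12015592, plus strand): tgcGGGTGACCTGgGAAacat
CCS (coding, chr1:4267521-4267541, minus strand): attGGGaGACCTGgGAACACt
The CSD1 window paired at 17 of its 21 bases, CCS at 15 and CSD2 at 13. A window that scored as well or better was found in 9 of 30592 genes for CSD1, in 1.59% of genes for CCS and in 12.4% for CSD2, under a scoring that allowed no bulge. A match of letters is a description and shows no cleavage in these plants.

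The 250 bases upstream of FSD1, FSD3 and CAT2 are shown because of results described below. CAT2 fell in all lines after 2 weeks, and FSD1 in the Italian lines. FSD3 read above SW in all SW mutants at each treatment, and so did CSD1, FSD1, CAT3 and APX1, of which only FSD1 is shown. Of all genes compared, 44.3% kept 1 sign in all 9 ratios of a SW mutant over SW. A link between a motif and these levels was not tested. Capitals mark 2 motifs, GTAC, the core bound by the copper-response factor SPL7, and ACCGAC or GCCGAC, the core bound by CBF proteins:
FSD1 (chr4:12887012-12887261, minus strand): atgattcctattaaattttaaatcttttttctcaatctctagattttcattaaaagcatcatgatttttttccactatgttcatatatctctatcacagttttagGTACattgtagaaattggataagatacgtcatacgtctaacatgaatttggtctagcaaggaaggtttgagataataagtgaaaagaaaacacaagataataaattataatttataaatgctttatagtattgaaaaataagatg
FSD3 (chr5:7850194-7850443, plus strand): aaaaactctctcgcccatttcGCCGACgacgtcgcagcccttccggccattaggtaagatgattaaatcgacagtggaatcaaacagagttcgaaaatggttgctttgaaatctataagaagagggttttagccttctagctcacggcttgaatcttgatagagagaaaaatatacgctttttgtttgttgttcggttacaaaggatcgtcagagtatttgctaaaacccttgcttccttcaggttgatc
CAT2 (chr4:16703505-16703754, minus strand): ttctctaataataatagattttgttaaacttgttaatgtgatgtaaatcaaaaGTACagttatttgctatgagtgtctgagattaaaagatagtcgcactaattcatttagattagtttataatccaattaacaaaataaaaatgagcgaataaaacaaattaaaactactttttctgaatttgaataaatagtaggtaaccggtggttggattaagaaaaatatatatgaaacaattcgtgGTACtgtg
In the window from 250 bases before to 50 bases after each start, with both strands read, GTAC occurred in 6 of the 10 members (CSD1, CCS, FSD1, CAT2, CAT3 and APX2) and in 39.0% of 26689 promoters. The CBF core occurred in 1 of the 10, FSD3, and in 8.74% of promoters. CSD1, FSD1, CAT3 and APX1, which also read above SW in all SW mutants, did not hold it. GAANNTTC, a core that heat shock factors bind, occurred in APX1 and APX2, which is 2 of the 10, and in 11.5% of promoters. The motifs do not overlap in these windows.

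The targeted genes and marker genes were checked first. CBF2 was at 540 FPKM (a fragment count scaled for transcript length and for the size of the library) in 35s at 22°C and at 0.20 in IT. CBF1, CBF2 and CBF3 transcripts stayed present in the cold in sw-cbf123, with CBF3 at 144 FPKM at 24 h against 53.2 in SW, and since the mutations are small changes within the coding region, these levels do not check the mutant labels. The 4 leaf markers were high, from 24371 to 39650 FPKM in sum in 21 groups. In the other, sw-cbf123 after 2 weeks, RBCS1A, a small subunit of Rubisco, is listed at 0 although it reached at least 16243 elsewhere, so an exact 0 in this table can be a failed estimate. The root marker PYK10 moved with treatment, from between 15.04 and 47.9 FPKM at 22°C to between 0.97 and 1.57 after 2 weeks of cold. The root phosphate transporter PHT1-1 was under 1 FPKM in every group, and the 3 flower markers were too. The part of PYK10-expressing cells in the cold results was not tested. In tissue of this kind fewer cells of a type and less RNA per cell cannot be told apart.

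Of the 10 members 9 reached 1 FPKM, and FPKM, being scaled for length, lets their levels be set side by side. FSD1, CAT2, CAT3 and APX1 were the abundant ones. FSD1 ranged from 415 to 2124 FPKM over the 22 groups, CAT2 from 233 to 1584, CAT3 from 476 to 1765, and APX1 from 379 to 1251. CSD1 ranged from 211 to 527 FPKM and CSD2 from 262 to 720, while CCS, whose product loads the CSD enzymes with copper, lay between 26.8 and 75.1. FSD2 ranged from 19.96 to 84.3 FPKM and FSD3 from 35.2 to 87.8. APX2, a cytosolic enzyme known for induction by heat and excess light, was listed at 0 in 13 groups and was above 0 in 9, with a maximum of 0.19 FPKM, in sw-cbf23 after 2 weeks of cold. It was listed at 0 in every IT, it8 and it33 group, and is left out of the comparisons. The 10 genes together made up from 0.37% (IT, 24 h) to 0.66% (sw-cbf23, warm) of a group's summed FPKM.

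**Figure D1:**
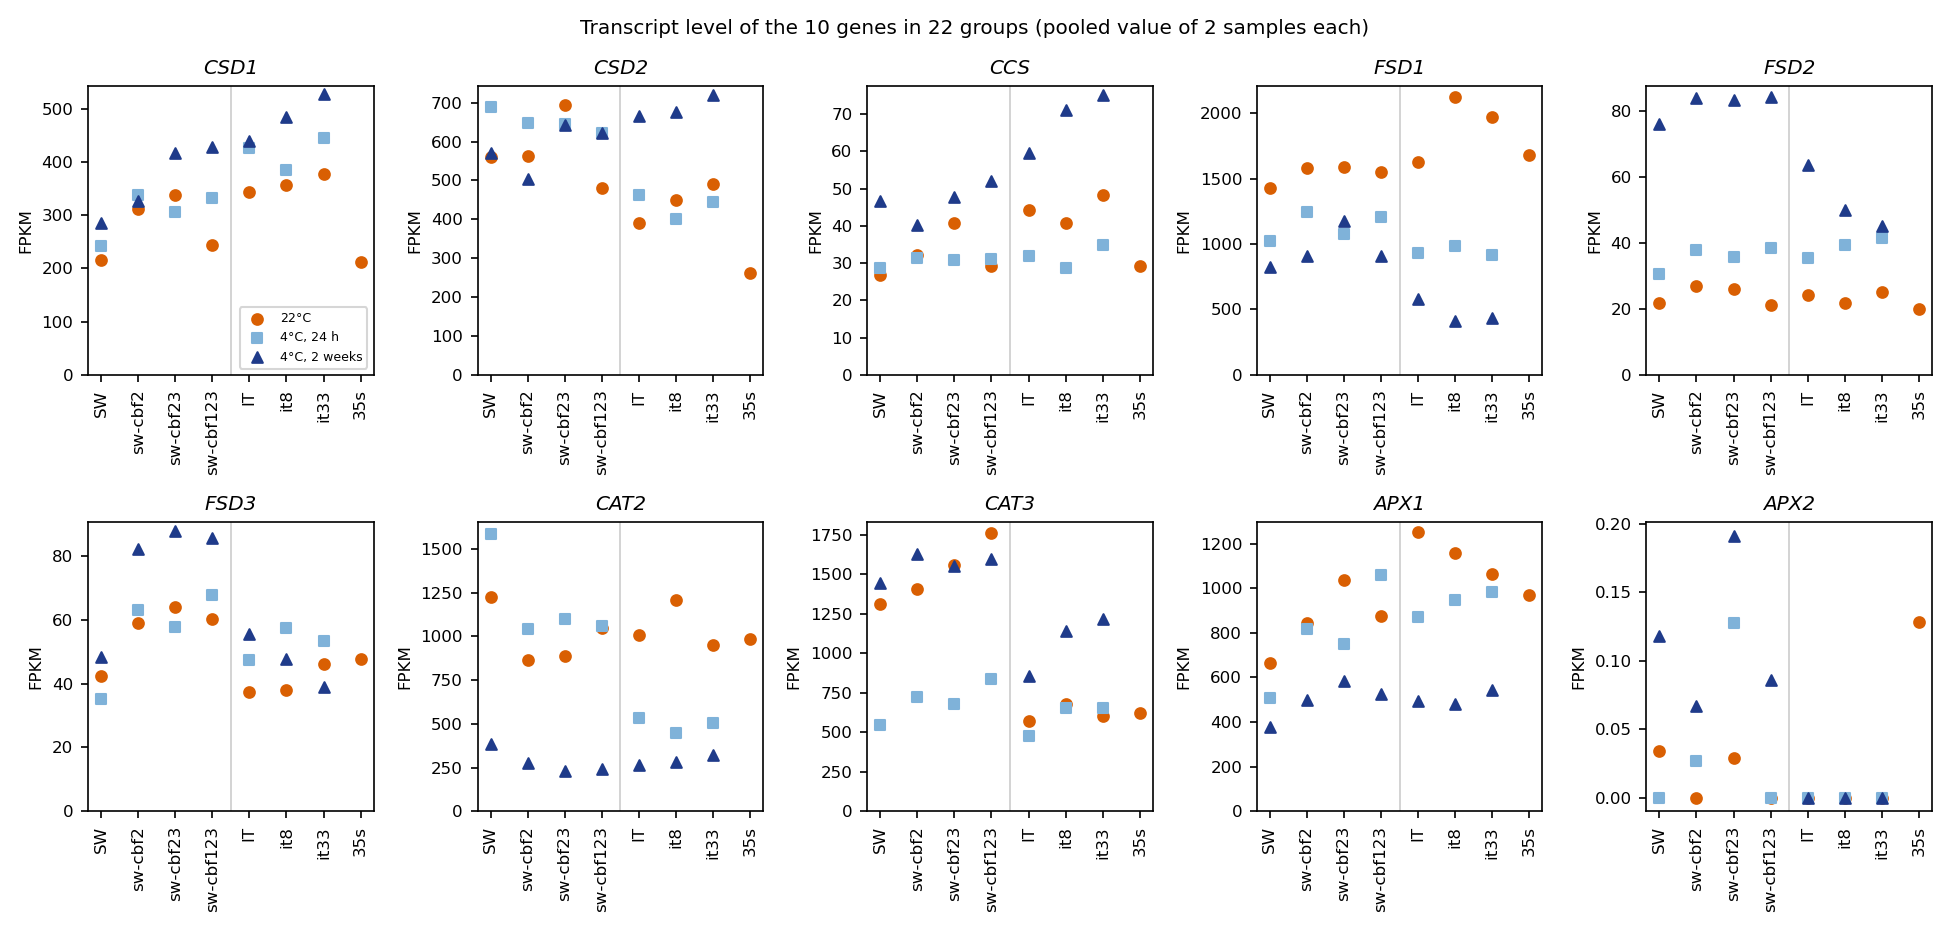
Level of each gene in FPKM (vertical axis, linear, a scale of its own in each panel) by line (horizontal axis), with 22°C as circles, 24 h at 4°C as squares and 2 weeks at 4°C as triangles. Each point is the pooled value of 2 samples, without error bars, and the grey line parts Swedish from Italian lines. FSD2 sat highest after 2 weeks in all 7 lines sampled in the cold, and CAT2 lowest.

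A ratio was taken as log2 of the 2 levels with 0.5 FPKM added to each, and a gene was called as risen or fallen at 2-fold or more with at least 1 FPKM in 1 of the groups. At 24 h none of 9 members was called up in SW, where 14.6% of all genes compared were, and 1 was called down, CAT3, against 14.7% of all genes. In IT none was called in either direction at 24 h, against 9.21% up and 10.9% down. After 2 weeks FSD2 was called up in SW (9.39% of all genes) and CAT2 down (11.4%). In IT at 2 weeks FSD2 was called up (7.89%) and FSD1, CAT2 and APX1 were called down (11.7%). The median log2 ratio over the members was 0.10 in SW and −0.27 in IT at 24 h, and 0.14 and 0.42 at 2 weeks. Over all genes compared it was −0.02, −0.06, 0.03 and −0.03 in the same order.

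**Figure D2:**
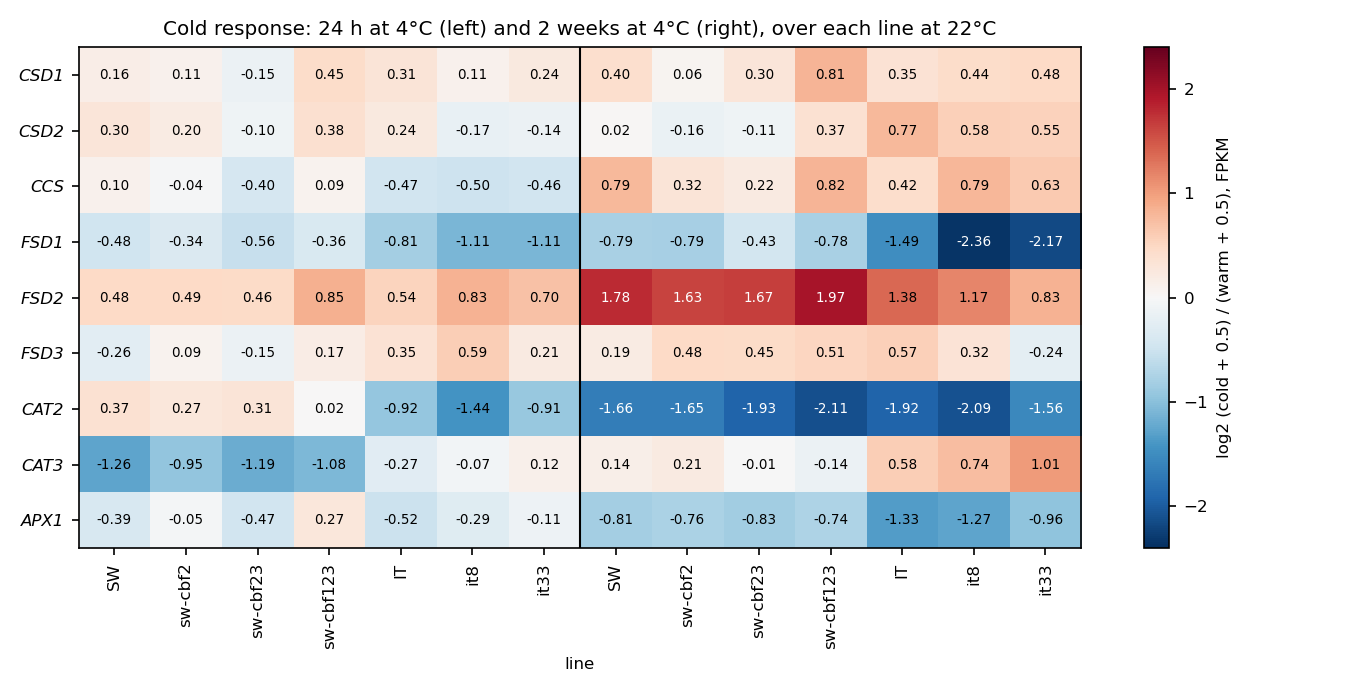
Log2 ratio of cold over warm in each line (columns) for the 9 members above 1 FPKM (rows), with 24 h at 4°C on the left and 2 weeks on the right, red for higher and blue for lower in the cold. The FSD2 row runs from 0.83 to 1.97 on the right, and the CAT2 row goes from 0.02 to 0.37 in the 4 Swedish lines at 24 h to between −2.11 and −1.56 in all 7 lines at 2 weeks.

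CSD1, CSD2 and CCS stayed within 2-fold of their warm level in the cold in all 7 lines. CSD1, the cytosolic enzyme, read 216 FPKM in SW at 22°C, 242 after 24 h and 285 after 2 weeks, and 344, 426 and 439 in IT. None of its 14 cold over warm ratios reached 2-fold, the highest being 0.81 on the log2 scale in sw-cbf123 at 2 weeks. CSD2, the plastid enzyme, went from 391 FPKM at 22°C in IT to 462 at 24 h and 667 at 2 weeks, a log2 ratio of 0.77, and from 562 to 690 and 570 in SW, a log2 ratio of 0.02 at 2 weeks. The 3 Italian lines lay between 0.55 and 0.77 at 2 weeks and the 4 Swedish lines between −0.16 and 0.37. The 2 sets did not overlap, as was so for 50.2% of all genes compared. CCS read 26.8, 28.8 and 46.6 FPKM in SW over the 3 treatments and 44.1, 31.8 and 59.4 in IT. Its ratio at 2 weeks was above 0 in all 7 lines, from 0.22 in sw-cbf23 to 0.82 in sw-cbf123, and was not called in any. At 24 h its ratio was −0.50 to −0.46 in the 3 Italian lines, while SW, sw-cbf2, sw-cbf23 and sw-cbf123 had 0.10, −0.04, −0.40 and 0.09.

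FSD1, the most abundant of the dismutase transcripts at 22°C, was lower in the cold in every line. In the Swedish lines its warm, 24 h and 2 week levels were 1429, 1022 and 829 FPKM for SW, 1581, 1249 and 912 for sw-cbf2, 1586, 1076 and 1176 for sw-cbf23, and 1552, 1210 and 906 for sw-cbf123. In the Italian lines they were 1626, 928 and 579 in IT, 2124, 987 and 415 in it8, and 1969, 915 and 437 in it33. All 7 cold levels of a line were below its warm level at both times, and only sw-cbf23 had a higher level at 2 weeks than at 24 h. The log2 ratios at 2 weeks ran from −0.79 to −0.43 in the Swedish lines, none called, and from −2.36 to −1.49 in the Italian lines, all called as fallen. At 24 h they ran from −0.56 to −0.34 and from −1.11 to −0.81, with it8 and it33 called. Beside the sum of CSD1 and CSD2, the level of FSD1 was 1.84 times as high in SW at 22°C and 0.97 times after 2 weeks, and in IT it was 2.21 and 0.52 times as high. The lowest ratio of the 22 groups was 0.35, in it33 after 2 weeks, and the highest was 3.56, in 35s at 22°C.

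**Figure D3:**
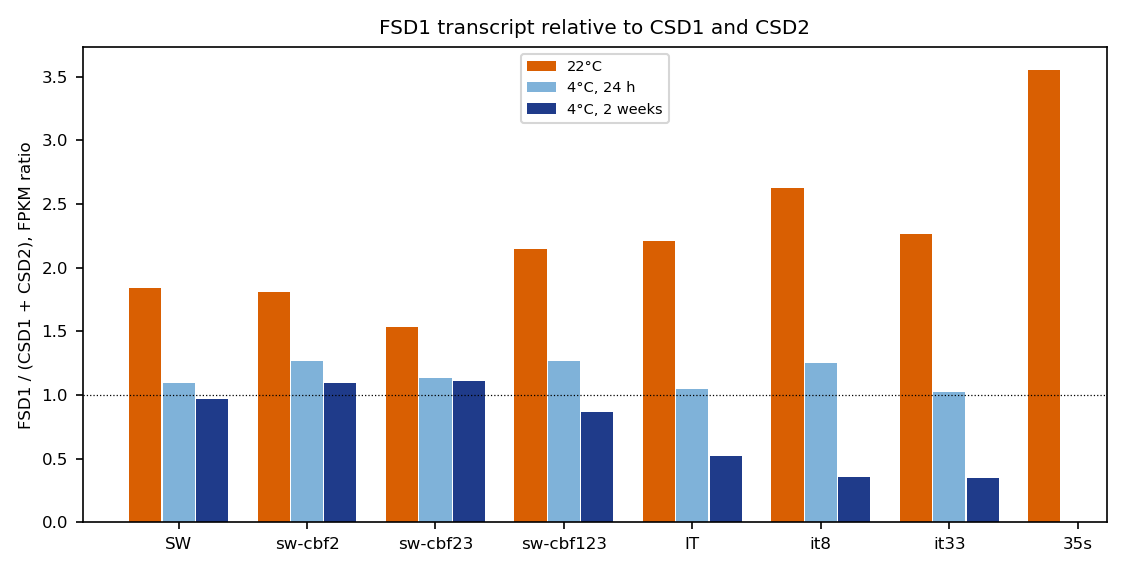
FSD1 level divided by the summed level of CSD1 and CSD2 (vertical axis, FPKM ratio from 0) in each line, with bars for 22°C, 24 h and 2 weeks at 4°C from left to right, and a dotted line at 1. Each bar is 1 ratio of pooled values, without an error bar. The ratio at 22°C was above 1.5 in all 8 lines, and after 2 weeks it was under 0.53 in the 3 Italian lines and between 0.86 and 1.11 in the 4 Swedish lines.

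FSD2 and FSD3 make the plastid enzyme pair bound to the plastid RNA polymerase at the nucleoid, and their transcripts did not keep step. FSD2 read 21.7 FPKM in SW at 22°C, 30.4 at 24 h and 75.9 at 2 weeks. In sw-cbf2, sw-cbf23 and sw-cbf123 the levels at 2 weeks were 83.7, 83.2 and 84.3 FPKM, from 26.8, 25.9 and 21.1 at 22°C. In IT, it8 and it33 they were 63.7, 49.98 and 45.2 FPKM, from 24.2, 21.9 and 25.2. Every 2 week level was above every 24 h level, the highest of which was 41.3 FPKM in it33, and every 24 h level was above every warm level. FSD2 rose by the 2-fold rule at 2 weeks in 6 of the 7 lines, from 1.17 in it8 to 1.97 in sw-cbf123, and the ratio in it33 was 0.83. No member was called up in all 7 lines, where 2.41% of genes compared in all of them were. At 24 h FSD2 ratios ran from 0.46 to 0.85 with no call. FSD3 had ratios between −0.26 and 0.59 at 24 h and between −0.24 and 0.57 at 2 weeks, none called. The level of FSD2 relative to FSD3 went from 0.51 to 1.57 in SW and from 0.65 to 1.15 in IT between 22°C and 2 weeks.

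The catalases parted by time and by background. Their 24 h ratios did not overlap between the backgrounds, as was so for 38.2% of all genes compared. CAT2, the main leaf catalase, which clears photorespiratory hydrogen peroxide and whose transcript peaks in the morning, was at 1228 FPKM in SW at 22°C, and at 863, 889 and 1048 in sw-cbf2, sw-cbf23 and sw-cbf123. After 24 h the same 4 lines were at 1584, 1042, 1099 and 1062 FPKM. IT, it8 and it33 were at 1008, 1207 and 951 FPKM at 22°C and at 532, 446 and 506 after 24 h. The Swedish lines were all at or above their warm level at 24 h and the Italian lines all below it, with log2 ratios of 0.02 to 0.37 and of −1.44 to −0.91, of which only that of it8 passed 2-fold. After 2 weeks CAT2 was at 387, 274, 233 and 243 FPKM in the Swedish lines and at 267, 284 and 323 in the Italian lines. It fell by the 2-fold rule in all 7 lines, and was the only member to do so, against 2.74% of genes compared in all of them.

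CAT3, a peroxisomal catalase whose transcript peaks towards the evening, parted by background already at 22°C, where 27.9% of all genes were called between SW and IT. It was at 1313, 1409, 1562 and 1765 FPKM in SW, sw-cbf2, sw-cbf23 and sw-cbf123, and at 573, 682 and 604 in IT, it8 and it33. After 24 h the Swedish lines were at 549, 727, 683 and 835 FPKM, close to the 476, 652 and 657 of the Italian lines. The log2 ratios at 24 h were −1.26, −0.95, −1.19 and −1.08 in the Swedish lines in the same order, all but that of sw-cbf2 called as fallen, and lay between −0.27 and 0.12 in the Italian lines. After 2 weeks CAT3 was at 1444, 1627, 1555 and 1601 FPKM in the Swedish lines, near their warm levels with ratios of −0.14 to 0.21. In IT, it8 and it33 it was at 859, 1141 and 1220 FPKM, with ratios of 0.58, 0.74 and 1.01, the last of which was called as risen. Taken as SW minus IT, the 24 h log2 ratios differed by 1.29 for CAT2 and by −0.99 for CAT3. CAT2 made up 48.3% of the summed level of CAT2 and CAT3 in SW at 22°C, 74.2% at 24 h and 21.1% at 2 weeks, and 63.7%, 52.8% and 23.7% in IT.

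The coding sequences of CAT2 and CAT3 are 76.7% identical, with a longest shared run of 30 bases. How the authors' estimation split fragments over such stretches is not given in the sources used here. CAT1 lies next to CAT3 on chromosome 1 (TAIR10.1, 7146636 to 7150180 and 7142972 to 7146540, both on the plus strand), and whether counting used strand is not given either. CAT1 rose at 24 h in both ecotypes, in SW from 52.1 to 110 FPKM and in IT from 28.6 to 60.7, with log2 ratios of 1.08 and 1.07.

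**Figure D4:**
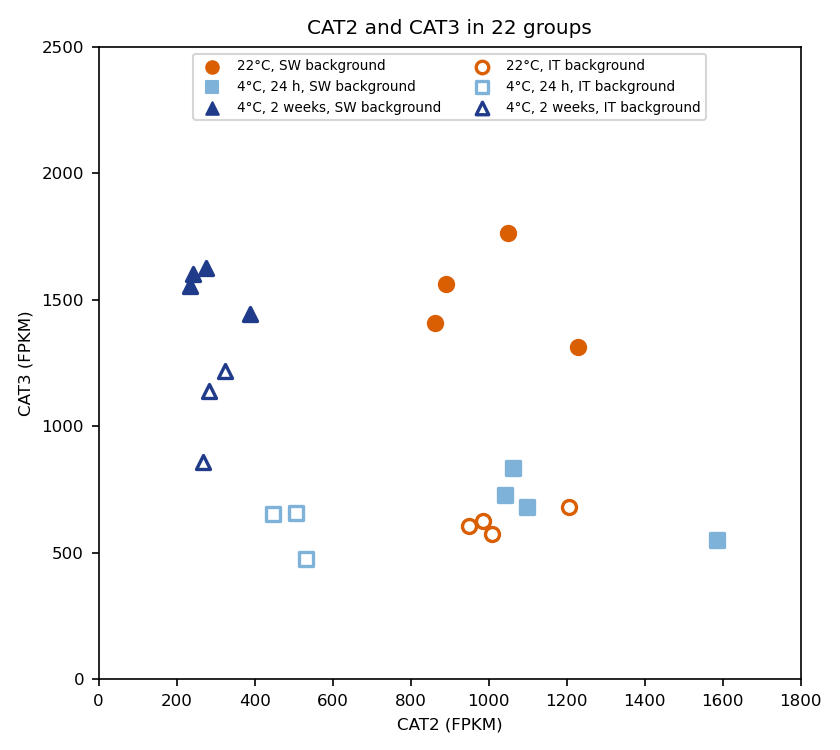
CAT3 level (vertical axis) against CAT2 level (horizontal axis), both in FPKM on linear axes, 1 point for each of the 22 groups, filled for Swedish and open for Italian lines, with the shape and colour giving the treatment. All 2 week groups sit at the left, with CAT2 at 387 FPKM or less, and at 24 h the Swedish squares have CAT2 at 1042 or more while the Italian squares have 532 or less.

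APX1, the main cytosolic ascorbate peroxidase, was at 663, 507 and 379 FPKM in SW over 22°C, 24 h and 2 weeks, and at 1251, 872 and 496 in IT. In sw-cbf2, sw-cbf23 and sw-cbf123 the warm levels were 845, 1036 and 875 FPKM and the 2 week levels 498, 583 and 525. In it8 and it33 they were 1159 and 1063 FPKM, and 480 and 545 after 2 weeks. Every 2 week level lay below every warm level. The log2 ratios at 2 weeks were −0.83 to −0.74 in the Swedish lines and −1.33 to −0.96 in the Italian lines, with IT and it8 called as fallen. At 24 h the ratios ran from −0.52 in IT to 0.27 in sw-cbf123, which was the one line with a higher level than at 22°C.

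The 4 Swedish and 3 Italian lines had log2 cold ratios that did not overlap for 5 of the 9 members at 24 h (CCS, FSD1, FSD3, CAT2 and CAT3), against 38.2% of all genes compared. At 2 weeks it was again 5 of 9 (CSD2, FSD1, FSD2, CAT3 and APX1), against 50.2%. Lines of a background share most of their genome and are not replicates of an ecotype.

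Between the wild types at the same treatment, CAT3 at 22°C was 2.29-fold higher in SW than in IT (log2 1.20) and CAT2 at 24 h was 2.98-fold higher (1.57). These were the 1 of 9 members called at 22°C, against 27.9% of all genes, and the 1 of 9 at 24 h, against 26.6%. None was called at 2 weeks, against 22.7%. CSD1 read lower in SW at each treatment, with log2 ratios of −0.67, −0.82 and −0.63, and so did APX1, with −0.92, −0.78 and −0.39, without reaching 2-fold. CSD2 was above IT at 22°C and 24 h (0.52 and 0.58) and below it at 2 weeks (−0.23). CSD2 stood at 2.60 times CSD1 in SW at 22°C and at 1.14 times in IT. FSD2 differed by 0.25 or less in either direction. Reads of both ecotypes were mapped to the same reference genome.

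The mutants were set against SW at each treatment. In sw-cbf123 none of 9 members was called at 22°C (4.32% of all genes were), 1 was called at 24 h, APX1 (10.8%), and none at 2 weeks (6.06%). APX1 was at 1057 FPKM in sw-cbf123 and 507 in SW at 24 h, 2.09-fold higher (log2 1.06). With quantile normalization this ratio was 0.87 and with median-of-ratios scaling 0.96, so the call depended on the scaling. Of the 9 members 6 had the same sign in all 9 ratios of a SW mutant over SW, against 44.3% of all genes. These 9 ratios share the 3 SW groups, so a SW level that is high or low at a treatment moves 3 of them together. Over all genes the median of each ratio was between 0.01 and 0.11.

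FSD3 read higher in the mutants throughout, at 59.0, 64.0 and 60.1 FPKM in sw-cbf2, sw-cbf23 and sw-cbf123 against 42.3 in SW at 22°C. At 24 h the levels were 63.0, 57.8 and 67.7 FPKM against 35.2, and at 2 weeks 82.3, 87.8 and 85.7 against 48.4. All 9 ratios were above 0, from 0.48 to 0.93 on the log2 scale, and none was called. Each is set against 1 pooled SW value, and 44.3% of all genes kept 1 sign in all 9. APX1 had ratios of 0.35 to 1.06 and CSD1, which was at 312, 338 and 244 FPKM in the mutants against 216 in SW at 22°C, had ratios of 0.17 to 0.65. CAT3 (0.10 to 0.60) and FSD1 (0.07 to 0.50) were also above SW in all 9. CAT2 was the only 1 of the 6 below SW in all 9, from −0.73 to −0.23. FSD2, whose rise in the cold was the highest of the members, had ratios over SW of −0.04 to 0.33. Between sw-cbf123 and sw-cbf2 the FSD3 ratios were 0.03, 0.10 and 0.06 at 22°C, 24 h and 2 weeks, and those of CAT2 were 0.28, 0.03 and −0.18. In sw-cbf2, the line in which CBF2 alone is named, FSD3 was 0.48, 0.83 and 0.76 above SW in log2 ratio.

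In it8 none of 9 members was called against IT at 22°C, 24 h or 2 weeks, where 2.17%, 2.38% and 1.64% of all genes were. Only CAT3 kept 1 sign in all 6 ratios of it8 or it33 over IT, 1 of 9 members against 6.12% of genes, with ratios of 0.07 to 0.51. FSD3, above SW in each Swedish mutant, ran from −0.50 to 0.30 in these Italian lines, and APX1 from −0.23 to 0.17. FSD1 in it8 was at 2124 FPKM against 1626 in IT at 22°C and at 415 against 579 at 2 weeks. In 35s, where 5.46% of all genes were called against IT, no member was. CSD1 was at 211 FPKM there against 344 in IT, CSD2 at 262 against 391 and CCS at 29.2 against 44.1, log2 ratios of −0.70, −0.58 and −0.59. These 3 transcripts had the lowest ratios of the 9 members in that line, and FSD1 had 0.05. A part of miR398 in these levels was not tested.

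**Figure D5:**
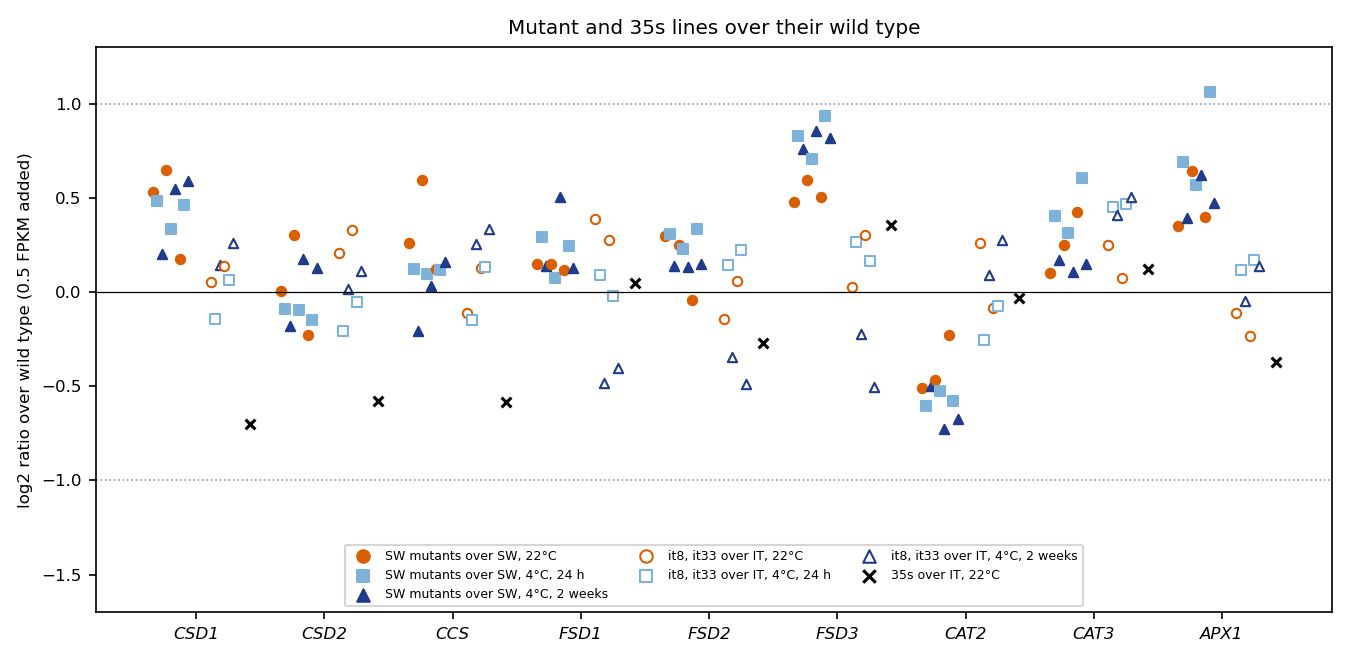
Log2 ratio over the wild type of the same background at the same treatment (vertical axis, 0.5 FPKM added) for 9 members (horizontal axis), with filled symbols for sw-cbf2, sw-cbf23 and sw-cbf123 over SW, open symbols for it8 and it33 over IT, and a cross for 35s over IT at 22°C. Each symbol is 1 ratio of pooled values, and dotted lines mark 2-fold. All 9 filled FSD3 symbols are between 0.48 and 0.93 and all 9 filled CAT2 symbols between −0.73 and −0.23.

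Other genes of the same families were followed next. Of 10 such genes 9 could be compared in SW at 24 h, and 1 rose and 2 fell, where 14.6% of all genes rose and 14.7% fell. CSD3, the peroxisomal copper/zinc dismutase, fell in both ecotypes, in SW from 86.0 to 27.0 FPKM (log2 −1.65) and in IT from 33.4 to 15.5 (−1.08). APX6 fell from 17.0 to 8.04 FPKM in SW (−1.04), and the riser was CAT1. At 2 weeks none of the 9 passed 2-fold in SW, where 9.39% of all genes rose and 11.4% fell. In IT 1 fell, APX3, a peroxisomal membrane peroxidase, from 172 to 82.6 FPKM (−1.05), beside 11.7% of all genes. Between the wild types SAPX, the stromal ascorbate peroxidase, was at 314 FPKM in SW and 147 in IT at 24 h (1.09), and TAPX, its thylakoid counterpart, was at 129 and 55.7 at 22°C (1.20).

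The copper genes did not move as a block. MIR398B, the precursor row of miR398b, went in SW from 78.9 FPKM to 14.04 at 24 h, was listed at 0 in IT at 22°C and was at 42.7 FPKM there at 24 h. After 2 weeks it was at 107 FPKM in SW, above its warm level, and at 26.2 in IT. At 24 h sw-cbf123, it33 and it8 went the other way from their wild types. In sw-cbf123 it was at 34.0 FPKM at 22°C and 74.2 at 24 h. In it33 it went from 28.7 to 19.7 FPKM, and in it8 from 18.2 to a listed 0. In sw-cbf2 it was at 131 FPKM at 24 h. The row covers a short precursor, and no fold is given against the zeros. Of 7 copper proteins compared, 4 fell in SW at 24 h and 3 in IT, beside 14.7% and 10.9% of all genes, with list medians of −1.15 and −0.78 against −0.02 and −0.06 over all genes. They included the plastocyanins, which carry electrons to photosystem I: in SW PETE2 went from 2618 to 742 FPKM, and in IT from 3638 to 1439. PAA2, a copper pump of the thylakoid, was at 22.6 FPKM in SW before and 6.66 after, and in IT at 24.0 and 10.3. At 2 weeks 2 of the 7 were called as fallen in SW and 1 in IT, beside 11.4% and 11.7% of all genes.

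Photorespiration makes the hydrogen peroxide that CAT2 clears. Of 8 of its genes compared, 3 fell in SW and 2 in IT at 24 h, beside 14.7% and 10.9% of all genes, and 3 and none at 2 weeks, beside 11.4% and 11.7%, with list medians of −0.83, −0.65, −0.54 and −0.39. HPR1, the peroxisomal hydroxypyruvate reductase, fell at 24 h in SW, from 536 to 138 FPKM, and in IT, from 480 to 123 (log2 −1.96 in both). GOX1 and GOX2, glycolate oxidases that form peroxide directly, fell in SW with −1.19 and −1.17. The CAT2 level at 24 h in SW, 1584 FPKM, was its highest of the 22 groups.

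Of the 10 listed partners of FSD2 and FSD3 at the plastid RNA polymerase none passed 2-fold in SW at either time. Of all genes 14.6% rose and 14.7% fell at 24 h, and 9.39% and 11.4% at 2 weeks. The list medians were −0.36 and −0.12, against −0.02 and 0.03 over all genes. In IT none did at 24 h, where 9.21% of all genes rose and 10.9% fell. At 2 weeks 1 rose there, PAP8, from 32.2 to 81.0 FPKM (1.32), beside 7.89% of all genes. Of 4 heat shock factors tied to APX genes, 2 rose and 1 fell in SW at 24 h, beside 14.6% and 14.7% of all genes. In IT at 24 h 1 rose and none fell, beside 9.21% and 10.9%. The riser common to both ecotypes was HSFA8, in SW from 10.9 to 35.4 FPKM and in IT from 23.8 to 91.9. At 2 weeks none rose, and 1 fell in each ecotype, HSFA2, where 11.4% of all genes fell in SW and 11.7% in IT. HSFA2 also was the faller in SW at 24 h (log2 −1.66), and had −1.77 in SW and −3.02 in IT at 2 weeks. Its warm level was low, 2.56 FPKM in SW and 5.48 in IT. None of the 3 catalase and chaperone helpers was called in either ecotype in the cold, where from 7.89% to 14.7% of all genes were called in a given direction.

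Likeness of pattern was described by Pearson's r of log2 levels over the 22 groups, among 16558 genes that reached 5 FPKM. The groups share lines and treatments, so r is a description only. The gene most like APX1 was APX3 (r = 0.95), that most like FSD2 was ATP-PRT2 (0.97), and that most like FSD3 was APC3 (0.94). For CAT2 it was CIPK26 (0.95), for CAT3 AGAL2 (0.94), for FSD1 AT5G04320 (0.94), for CSD1 PDF1.2c (0.93), for CCS CRR42 (0.90) and for CSD2 MYB114 (0.83). Among the members, CSD1 and CCS had r = 0.71, FSD1 and APX1 0.71, and FSD2 and CAT2 −0.86.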

How the data were processed

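RNA was sequenced on an Illumina instrument. The authors mapped reads to TAIR10 with TopHat2 2.1.0 and made the deposited FPKM values with Cuffdiff, per the labels (Cufflinks 2.1.1; the paper's methods name a later release), 1 pooled value per group of 2 samples. The depth of the libraries is unknown, and no interval was set. The design foresaw limma on replicates, which pooled columns do not allow, so ratios were used, without p-values. Groups came from the sample labels. Genes were compared at 1 FPKM or more in either group, 0.5 FPKM was added, and calls were made at 2-fold. Genes outside the 10 members are named where they were among the 3 largest called ratios of a listed pathway, or the most alike. The members and lists were chosen with earlier results of these data known. Alternatives were 0.1 or 1 FPKM added, no filter, quantile normalization, median-of-ratios scaling, a 1.5-fold threshold and, for motifs, the forward strand. Python 3.11.15, pandas 2.3.3 and NumPy 2.4.6 were used. Sequences and positions came from RefSeq TAIR10.1.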

Additional observations from a re-analysis of the deposited data

Results flagged for a closer look

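CAT2 after 24 h of cold is the one member result flagged. All 4 lines of the Swedish background were above their warm level and all 3 of the Italian background below it. In sw-cbf123 the log2 ratio was only 0.02. The median over all genes for that comparison was 0.02, and −0.02 with median-of-ratios scaling, so the sign of CAT2 there is not firm. The share of all genes with this pattern is not given, but for 38.2% of genes compared the Swedish and Italian ratios at 24 h did not overlap. The log2 ratio was 0.37 in SW and −0.92 in IT, a difference of 1.29. With 1 pooled value per group the difference was not tested.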

How the results depend on the processing

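No paired analysis was possible because each group is given as 1 pooled value. For the same reason, leaving out replicates was not run. Single ratios and differences gave 2050 values under the alternatives. None of those past 2-fold changed sign, 4 were no longer past it and 6 were newly past it. A change of sign in a smaller ratio or difference was not counted. Counts of members called moved by more than 1.5 times as follows. With quantile normalization sw-cbf123 over SW at 24 h went from 1 to 0 and SW over IT at 2 weeks from 0 to 1 (CAT3). With median-of-ratios scaling sw-cbf123 over SW at 24 h went from 1 to 0. With a 1.5-fold threshold, SW at 2 weeks in the cold went from 2 to 5, IT at 24 h from 0 to 2, sw-cbf123 over SW from 1 to 3 at 24 h and from 0 to 3 at 2 weeks, 35s over IT from 0 to 2, and SW over IT from 1 to 4 at 22°C, from 1 to 3 at 24 h and from 0 to 2 at 2 weeks. Members past it in all 7 lines at 2 weeks went from 0 to 1 upward (FSD2) and from 1 to 2 downward (CAT2 and APX1). By construction a lower threshold calls more genes. Quantile normalization moved the median log2 ratio of SW over IT at 22°C to 0.13.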

Other observations

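Some genes of the listed pathways outside the 10 differed between SW and IT by more than the 1.57 of CAT2, the highest log2 ratio among the members. GPX7, a plastid glutathione peroxidase, was at 1.41 FPKM in SW and 141 in IT at 22°C, and in IT it fell to 44.5 at 24 h and 5.87 at 2 weeks. MDAR3, a monodehydroascorbate reductase, was at 0.53 FPKM in SW and 63.2 in IT at 22°C, and fell in IT to 26.9 and 6.51. CCH, a copper chaperone, was at 115 FPKM in SW and 527 in IT at 22°C, and was at 268 in sw-cbf123. PRXIIE, a plastid peroxiredoxin, was higher in SW, at 460 FPKM against 144 in IT (log2 1.68, close to that of CAT2).

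GPX6, another glutathione peroxidase, rose in both ecotypes in the cold. It went from 56.7 FPKM at 22°C to 311 at 24 h and 283 at 2 weeks in SW, and from 229 to 1027 and 517 in IT. VTC4, a phosphatase of ascorbate synthesis, fell in SW at 24 h from 86.4 to 18.7 FPKM. In sw-cbf123 at 24 h the ascorbate gene GME was at 365 FPKM against 153 in SW, and MDAR2, a further reductase of the cycle, was at 43.4 against 16.1.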
